A study of Homo sapiens with 10 samples.

Results

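STAT3 is a transcription factor that is phosphorylated by JAK and Src kinases, often downstream of interleukin-6, and then binds DNA. Among its best known target genes are STAT3 itself, which gives a positive loop, and SOCS3, whose product blocks JAK signaling at the receptor and so closes a negative loop. The binding of STAT3, NFKB1, FOS, JUN, and JUNB was examined at both genes. FOS, JUN, and JUNB are subunits of AP-1, a dimeric factor that responds to growth and stress signals, and NFKB1 is the p50 subunit of NF-κB, the main inflammatory factor.

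The STAT3 locus is taken here as chr17:40450000-40560000 and the SOCS3 locus as chr17:76320000-76400000 on hg19, the build named in the submitters' processing notes, and every deposited peak with its summit in either interval is a member. These are 313 peaks of 880198 in all, 119 at STAT3 and 194 at SOCS3. Both genes lie on the minus strand, and distances are counted from the starts at positions 40540405 and 76356158. The peaks come from ChIP-seq of MCF10A-ER-Src cells, a single human mammary epithelial line in which Src is fused to the ligand-binding part of the estrogen receptor, so that tamoxifen switches Src on. All 10 samples are this line: for each protein, 1 library is from non-transformed cells, which received ethanol according to the sample titles, and 1 is from cells after 12 h with 1 µM 4-hydroxytamoxifen. The names written inside the deposited lists give the ethanol cells 36 h, so time and treatment cannot be told apart. The labelled STAT3 antibody is one sold against the tyrosine-phosphorylated form, the form that binds DNA.

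With 1 library per protein and state no difference has a replicate check, and no test is given. The signal of a peak is its pileup, the number of extended reads over its summit, also given in RPM, reads per 1000000 filtered reads of its library. A ratio of signals is transformed over non-transformed, with an exact 95% interval that covers counting error only. Libraries held 4837474 to 22082403 filtered reads, and lists held 13296 to 164669 peaks. The 2 STAT3 libraries were close in depth, 10929003 reads in non-transformed cells and 8967267 in the transformed, whereas the NFKB1 library of non-transformed cells had 4837474 reads against 9674390. The JUNB library of non-transformed cells was also shallower, with 9178601 reads against 15750765. Summits of all lists that lay within 300 bp of each other were joined into a site, in chains, so that a site could span more than 300 bp.

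The 2 loci differed in what surrounded the start. At the STAT3 start, 1 very strong STAT3 site dominated. Its signal in RPM was lower in transformed cells, at a ratio of 0.71, or 0.895 when also divided by fragment length. Around SOCS3, strong STAT3 sites were spread over both flanks. The STAT3 signal in RPM was higher in transformed cells at 11 of 11 sites with a STAT3 summit in both states. By fold enrichment it was higher at 10 of 11. Genome-wide, 25010 of 30047 such sites had a higher signal in RPM in transformed cells. The STAT3 locus had 9 STAT3 peaks in non-transformed cells and 13 in the transformed. The SOCS3 locus had 14 and 28. As a scale for these numbers, chromosomes 1 to 22 and X were divided into tiles of the same length, the loci included. Tiles without a peak in any list were left out. Of 24565 tiles of 110 kb, 1.57% held at least as many STAT3 peaks as the STAT3 locus in non-transformed cells and 2.65% in transformed cells. Of 33158 tiles of 80 kb, 0.0573% did so for the SOCS3 locus in non-transformed cells and 0.0121%, or 4 tiles, in transformed cells.

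**Figure D1:**
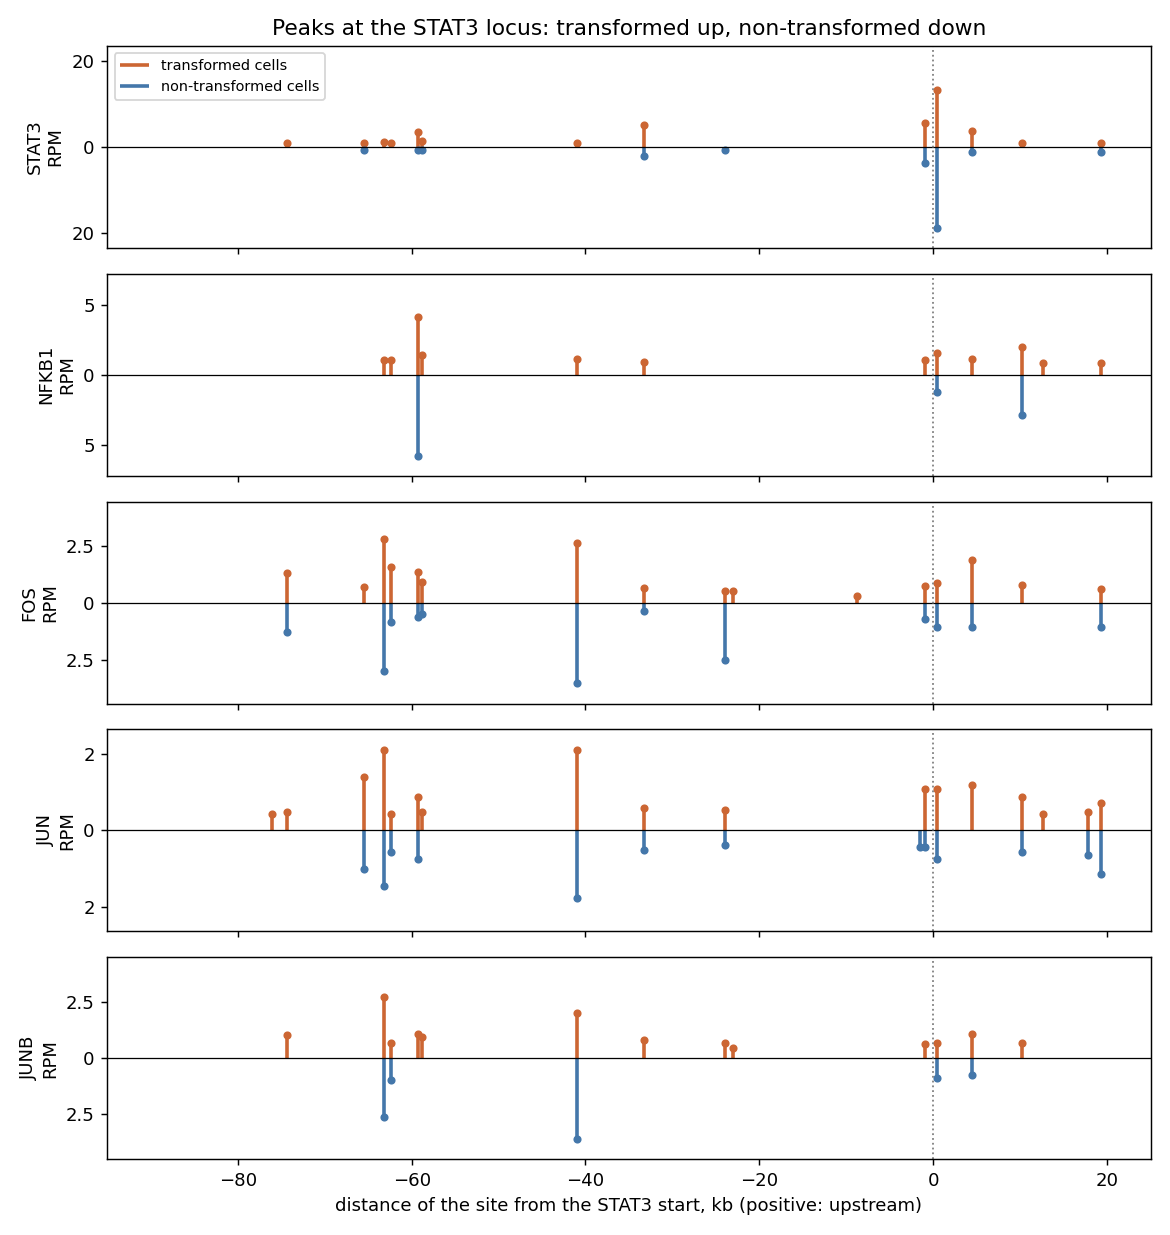
Signal of each protein (rows) at the sites of the STAT3 locus, in RPM, drawn upward for transformed and downward for non-transformed cells against the distance from the STAT3 start in kb, positive upstream. Each line is the strongest peak of 1 list at 1 site, without replicates. The STAT3 line 0.4 kb upstream reaches 18.85 in non-transformed and 13.38 in transformed cells, while the tall FOS, JUN, and JUNB lines stand 41.0 and 63.2 kb downstream.

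The peak at the STAT3 start was among the strongest STAT3 peaks of the genome in both states. In non-transformed cells it covered chr17:40540432-40541090, with its summit 420 bp upstream of the start and 206 reads, and it ranked 6 among 42872 peaks. In transformed cells the summit lay 409 bp upstream, 11 bp away, with 120 reads, and the peak ranked 31 among 80315. The signal was 18.85 RPM in non-transformed and 13.38 in transformed cells, a ratio of 0.71 (0.562 to 0.894). Of the 30047 sites with a STAT3 peak in both states, 16.8% had a lower signal in transformed cells, and 4.70% had a ratio below that of the STAT3 start. The deposited lists keep at most 1 read per position, so a summit cannot hold more reads than 2 fragment lengths, which is 300 reads in non-transformed cells (fragments of 150 bp) and 238 in transformed cells (119 bp). When the signal was also divided by the fragment length, the ratio was 0.895. No counting interval was computed for this value, so whether it differs from 1 is not known. The size of the difference at this site thus moved with the scaling, and its place among the 30047 sites did not, because this scaling is the same for every site.

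The other proteins did not share this rank at the STAT3 start. FOS had 20 reads in non-transformed cells and 19 in the transformed, JUN 12 and 20, JUNB 8 and 11, and NFKB1 6 and 15. Each was a peak in its list, so this was the only site of the locus with a peak in all 10 lists. Within its own list, the FOS peak was at or above 60.27% of the peaks in non-transformed cells and 58.67% in the transformed, JUN 62.29% and 73.57%, JUNB 41.7% and 37.33%, and NFKB1 25.67% and 80.12%, where STAT3 was at or above 99.99% and 99.96%. The STAT3 signal in RPM was 17.55 times that of FOS in non-transformed and 15.55 times in transformed cells, and 99.97% of the sites with both proteins had a lower quotient in either state. Because each antibody has its own efficiency, the quotient says nothing about the amounts of the proteins, and only its order among sites is read. Its median was 0.717 over 31183 sites in non-transformed and 1.18 over 64790 sites in transformed cells.

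RefSeq on GRCh38 (GRCh38.p14) gives the 250 bases before the STAT3 start as chr17:42388443-42388692, minus strand. They are shown because on hg19 the strong STAT3 peak of non-transformed cells ran from 27 to 685 bp before the start used here. Its summit lay farther upstream than the stretch shown, and the peak was not placed on the letters, since the builds differ. The capitals mark a match to TTCNNGAA, a STAT half-site pair with a spacer of 2 bases.

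STAT3 promoter: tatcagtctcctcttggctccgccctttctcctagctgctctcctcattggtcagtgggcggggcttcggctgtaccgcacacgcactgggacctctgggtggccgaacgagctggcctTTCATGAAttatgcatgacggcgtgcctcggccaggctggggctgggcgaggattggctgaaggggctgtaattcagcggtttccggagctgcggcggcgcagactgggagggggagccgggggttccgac

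The match begins 131 bases before the start, and 6.62% of 35116 promoters of the same length in the table hold this pattern on either strand. The spacer of 2 was searched only after the letters had been seen. The more usual STAT pattern TTCNNNGAA is not in this window (6.57% of promoters have it), nor is the AP-1 pattern TGANTCA (6.57%), on either strand. For SOCS3 no sequence is shown, because the 2 starts in the same table lie 848 bp before and 410 bp after the start of the principal GENCODE transcript.

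The next strongest STAT3 sites of the STAT3 locus in transformed cells lay between 4.4 kb upstream and 59.2 kb downstream of the start. At 1.0 kb downstream of the start, STAT3 had 42 reads in non-transformed cells and 51 in the transformed, a ratio of 1.48 (0.964 to 2.28) whose interval includes 1. At 4.4 kb upstream, STAT3 had 14 and 34 reads, and the ratio was 2.96 (1.55 to 5.97). At 33.3 kb downstream, 24 and 45 reads gave a ratio of 2.29 (1.36 to 3.92). FOS had 7 and 14 reads there, in peaks that did not overlap and whose summits lay 241 bp apart. At 58.8 kb downstream, 8 and 13 reads gave a ratio of 1.98 whose interval, 0.761 to 5.51, spans 1. At 59.2 kb downstream, STAT3 had 9 and 31 reads, the highest ratio of the locus at 4.20 (1.95 to 10.0). This last site is also where NFKB1 was strongest at the locus, with 28 reads in non-transformed cells and 40 in the transformed. In RPM NFKB1 was 5.79 and 4.14 there, a ratio of 0.714 (0.430 to 1.20). At 1.5 kb downstream, JUN alone had a peak of 7 reads in non-transformed cells. RefSeq gives STAT3 a length of 75119 bp on GRCh38, and 13 of the 14 downstream sites were nearer to the start than that. Whether they fall in exons or introns was not assigned, since no annotation of hg19 was used.

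Over the whole STAT3 locus, 8 sites had a STAT3 peak in both states, 5 in transformed cells only, and 1 in non-transformed cells only. Across the genome 53.0% of STAT3 sites had a peak in transformed cells only and 13.2% in non-transformed cells only. The median ratio at the 8 shared sites was 1.73, with 2 of them below 1, against 1.71 over all 30047 shared sites. The 5 sites of transformed cells only were weak, with 0.892 to 1.23 STAT3 RPM, against a median of 1.23 over all STAT3 peaks of that list. All 5 had an AP-1 peak already in non-transformed cells, which 62.7% of such STAT3 sites had genome-wide, and 4 of 5 had an NFKB1 peak in transformed cells, against 44.1%.

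AP-1 had its own centers at the STAT3 locus, described here after their values were seen. At 41.0 kb downstream, FOS had 66 reads in non-transformed cells and 58 in the transformed, JUN 28 and 39, and JUNB 33 and 32. In RPM, which takes the unequal depth of the libraries into account, the JUNB ratio there was 0.565 (0.336 to 0.948). At 63.2 kb downstream, FOS had 56 and 62 reads, JUN 23 and 39, and JUNB 24 and 43. The JUNB ratio in RPM was 1.04 (0.6195 to 1.80) at this site. STAT3 had no peak at either site in non-transformed cells and 8 and 11 reads in transformed cells. The sites with the highest AP-1 signal were therefore not those with the highest STAT3 signal. Of the sites with STAT3 and FOS in transformed cells, 8.27% had a lower STAT3 to FOS quotient than the 63.2 kb site.

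The largest difference of any AP-1 protein at the locus was for FOS at 24.0 kb downstream. FOS had 47 reads in non-transformed cells and 11 in the transformed there, or 2.52 and 0.498 RPM, a ratio of 0.197 (0.0923 to 0.386). Only 0.0277% of the 97455 sites with FOS in both states had a lower ratio. JUN was weak at this site in both states, with 6 and 10 reads, and JUNB had a peak of 11 reads in transformed cells only. It was also the only site of the locus where STAT3 had a peak in non-transformed cells (8 reads) and none in transformed cells.

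At SOCS3 the STAT3 signal was spread over many strong sites. The strongest lay 8.3 kb downstream of the start, beyond the gene, whose length is 4148 bp in RefSeq on GRCh38. STAT3 had 100 reads there in non-transformed cells and 124 in the transformed. Its summit was at the same base in both, 76347662, 8496 bp from the start. The peak ranked 82 in the list of non-transformed and 19 in that of transformed cells. The ratio was 1.51 (1.15 to 1.99), and 41.6% of shared STAT3 sites had a lower one. In transformed cells the peak ran over chr17:76347347-76349750, and with 2404 bp it was among the 4 widest of its list. FOS had 19 and 46 reads at this site, JUN 18 and 33, JUNB 5 and 21, and NFKB1 5 and 22. The FOS summits lay 8164 and 8163 bp from the start, not at the STAT3 summit. The summits joined into this site spread over 332 bp in non-transformed and 333 bp in transformed cells.

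The SOCS3 start itself carried a STAT3 peak in both states. The summit lay 67 bp upstream of the start in non-transformed cells, with 62 reads, and 22 bp upstream in transformed cells, with 78 reads. The ratio was 1.53 (1.08 to 2.18), which is below the median of all shared sites. FOS had 11 and 15 reads there, JUN 8 and 11, JUNB 6 and 10, and NFKB1 7 reads in transformed cells only. Within their own lists these peaks were at or above 19.73% (JUNB in non-transformed cells) to 48.8% (FOS in transformed cells) of the peaks, while STAT3 was at or above 98.78% and 98.92%. The STAT3 to FOS quotient was 9.60 in non-transformed and 12.81 in transformed cells, and 99.72% and 99.91% of sites with both proteins had a lower one. Near the start, STAT3 alone had 11 and 10 reads at 0.5 kb downstream, a ratio of 1.11 (0.422 to 2.87). At 0.9 kb upstream JUN had 9 reads in each state, and STAT3 had 11 in transformed cells only.

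**Figure D2:**
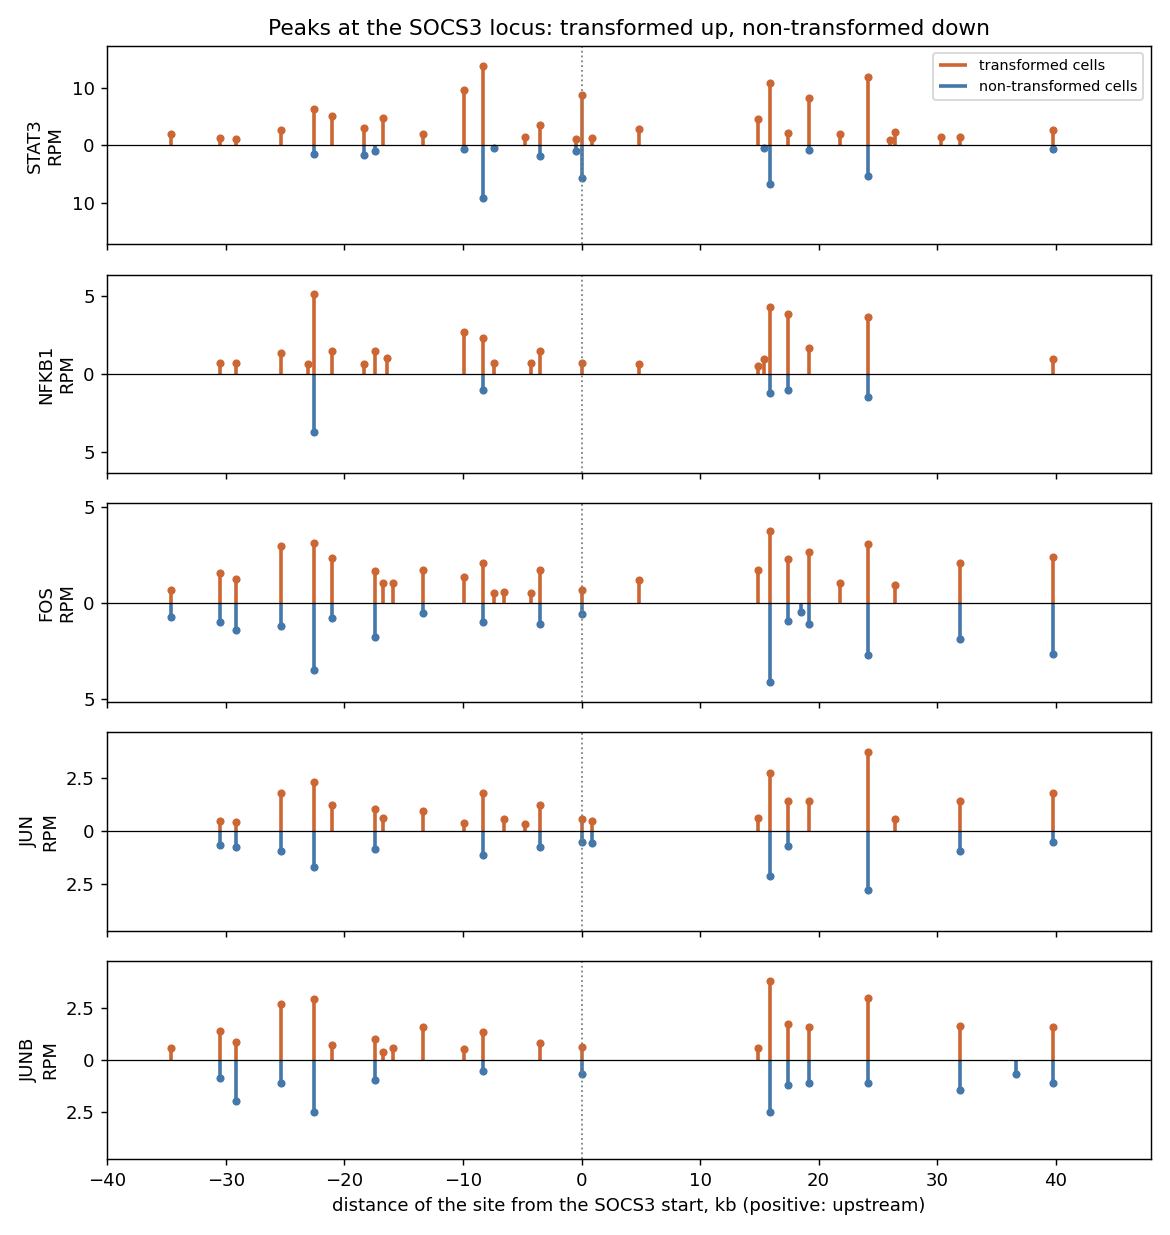
Signal of each protein at the sites of the SOCS3 locus, in RPM, upward for transformed and downward for non-transformed cells, against the distance from the SOCS3 start in kb, positive upstream. Each line is the strongest peak of 1 list at 1 site, without replicates. STAT3 lines of transformed cells stand on both flanks and reach 13.83 at 8.3 kb downstream and 11.93 at 24.1 kb upstream.

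Upstream of SOCS3 a pair of sites carried all 5 proteins strongly in transformed cells. At 24.1 kb upstream, STAT3 had 59 reads in non-transformed cells and 107 in the transformed, a ratio of 2.21 (1.59 to 3.09). JUN was at its strongest of the locus there, with 44 and 69 reads, and FOS had 51 and 67. NFKB1 had 7 and 35 reads, a ratio of 2.50 (1.09 to 6.67), and JUNB 10 and 47, a ratio of 2.74 (1.37 to 6.08). At 15.9 kb upstream, STAT3 had 74 and 97 reads, a ratio of 1.60 (1.17 to 2.19). FOS had 77 and 82 reads at that site, JUN 33 and 51, and JUNB 23 and 60. NFKB1 had 6 and 41 reads, a ratio of 3.42 (1.44 to 9.85), higher than at 99.2% of the 11725 sites with NFKB1 in both states.

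The 3 largest STAT3 ratios at SOCS3 were at 9.9 kb downstream, 19.2 kb upstream, and 22.5 kb downstream, whose peaks in non-transformed cells were at or above 16.82%, 52.06%, and 77.99% of their list. At 9.9 kb downstream, STAT3 had 7 reads in non-transformed cells and 86 in the transformed, a ratio of 15.0 (6.96 to 38.4), and 99.98% of shared STAT3 sites had a lower one. No other protein had a peak there in non-transformed cells, and all 4 had one in transformed cells, with 30 reads for FOS, 26 for NFKB1, 8 for JUNB, and 7 for JUN. At 19.2 kb upstream, STAT3 had 10 and 73 reads, a ratio of 8.90 (4.57 to 19.3), with FOS at 21 and 58 reads. At 22.5 kb downstream, a site named for having peaks in all 10 lists, STAT3 had 16 and 57 reads, a ratio of 4.34 (2.46 to 8.10). AP-1 was already strong there in non-transformed cells, with 65 FOS reads against 69 in transformed cells, and NFKB1 had 18 and 49. The sites at 8.3 kb downstream, 15.9 kb upstream, and 24.1 kb upstream were the other SOCS3 sites with a peak in all 10 lists.

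**Figure D3:**
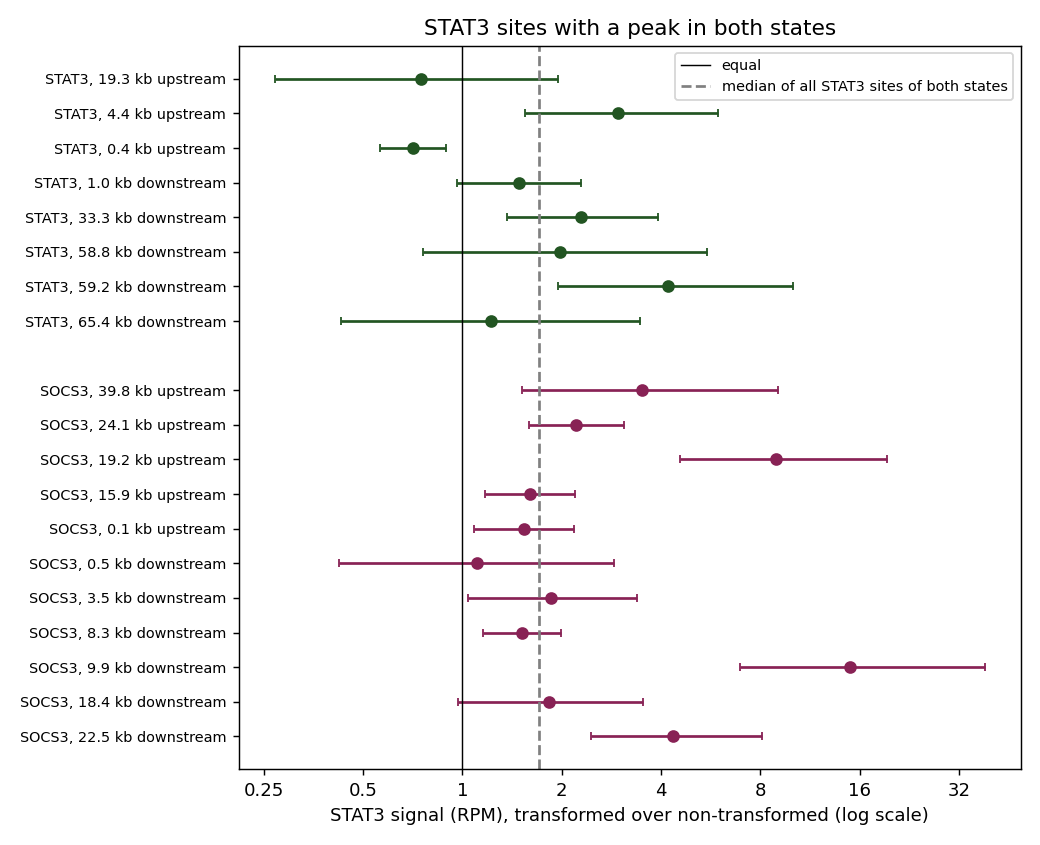
Ratio of the STAT3 signal, transformed over non-transformed, in RPM on a log axis, at the 19 sites of both loci with a STAT3 summit in both states, with exact 95% counting intervals. The solid line marks equal signals and the dashed line the median of all shared STAT3 sites, 1.71. The site at the STAT3 start, 0.4 kb upstream, lies at 0.71, and all 11 SOCS3 sites lie above 1, up to 15.0. Genome-wide, 25010 of 30047 shared STAT3 sites lie above 1.

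Over the SOCS3 locus, 11 sites had a STAT3 summit in both states, 17 in transformed cells only, and 3 in non-transformed cells only. The share in transformed cells only was near the background of 53.0%. The ratio was above 1 at 11 of 11 shared sites, against 25010 of 30047 genome-wide. It was at least 2 at 5 of the 11, against 39.1% of shared sites genome-wide, and its median was 1.86. The lists give 1 summit per peak, and all 3 sites of non-transformed cells only, at 7.4 kb and 17.4 kb downstream and 15.4 kb upstream, lay inside wider STAT3 peaks of transformed cells, of 2404, 1814, and 1057 bp. By whole peaks, chosen after seeing the data, STAT3 covered 15 SOCS3 sites in both states, 19 in transformed cells only, and none in non-transformed cells only, where genome-wide 53.1% were covered in transformed cells only and 12.9% in non-transformed cells only. STAT3 peaks covered 4889 bp of the SOCS3 locus in non-transformed cells and 15567 bp in the transformed, with median signals of 1.24 and 2.62 RPM. At the STAT3 locus whole peaks gave the same 8, 5, and 1 sites as summits.

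The local background that MACS used differed between the loci. It was 0.852 reads at the SOCS3 start in transformed cells and 0.621 in non-transformed cells, but 0.440 and 0.607 at the STAT3 start. The genome-wide value was 0.395 for the STAT3 list of transformed cells and 0.607 for that of non-transformed cells. The deposited fold enrichment divides by the background at each peak after adding 1 read to both. By this measure the median STAT3 ratio was 1.31 at SOCS3 and 1.55 at STAT3, and the ratio at the SOCS3 start was 1.10. At 9.9 kb downstream of SOCS3 it was 9.52, and at 8.3 kb downstream 1.08. In fold enrichment the 0.5 kb downstream site of SOCS3 was lower in transformed cells, at 0.802.

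The 17 SOCS3 sites with a STAT3 summit in transformed cells only spanned 0.892 to 5.13 RPM. By summits, 9 of 17 had AP-1 in non-transformed cells, against 62.7% of such STAT3 sites genome-wide, and 8 had no protein, against 36.6%. In transformed cells 15 of 17 had AP-1, against 83.2%, and 7 had NFKB1, against 44.1%. By whole peaks the numbers were 10, 7, 15, and 8, and 1 of the 17 was covered by STAT3 in non-transformed cells. The strongest, named after their values were seen, were at 21.1 kb downstream with 46 STAT3 reads, at 16.7 kb downstream with 43, and at 14.9 kb upstream with 41. At 21.1 kb downstream only FOS had a peak in non-transformed cells, of 15 reads, and it had 51 in transformed cells, a ratio of 2.87 (1.59 to 5.49). At 14.9 kb upstream no protein had a peak in non-transformed cells. At 16.7 kb downstream no protein had a summit in that state, but a STAT3 peak of 11 reads and a FOS peak of 33 reads with summits near 17.4 kb downstream reached the site. In transformed cells FOS had 22 reads at 16.7 kb downstream and 38 at 14.9 kb upstream, where all 5 proteins had a peak. Without any AP-1 peak in either state, STAT3 had 13 reads at 30.4 kb upstream and 8 reads at 26.0 kb upstream.

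NFKB1 differed most in its number of peaks at both loci. At STAT3 it had 3 sites in both states, 9 in transformed cells only, and none in non-transformed cells only. At SOCS3 the numbers were 5, 18, and none. Genome-wide 82.0% of NFKB1 sites had a peak in transformed cells only and 1.79% in non-transformed cells only, so both loci were near the background of this pair of libraries. The shallow NFKB1 library of non-transformed cells held no peak below 0.827 RPM, and 9 of the 18 SOCS3 sites of transformed cells only, and none of the 9 at STAT3, were below that value. At the 5 shared SOCS3 sites the NFKB1 ratio was 1.36 to 3.70, with a median of 2.50, against a median of 1.03 over all shared NFKB1 sites. Its largest value was at 17.4 kb upstream, with 5 and 37 reads (1.45 to 12.1). Such low read numbers in non-transformed cells are near the lowest pileup of that list, 4 reads. The intervals at 8.3 kb downstream (0.813 to 7.44) and 22.5 kb downstream (0.779 to 2.48) included 1. At the 3 shared STAT3 sites the ratio was 0.679 to 1.25.

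**Figure D4:**
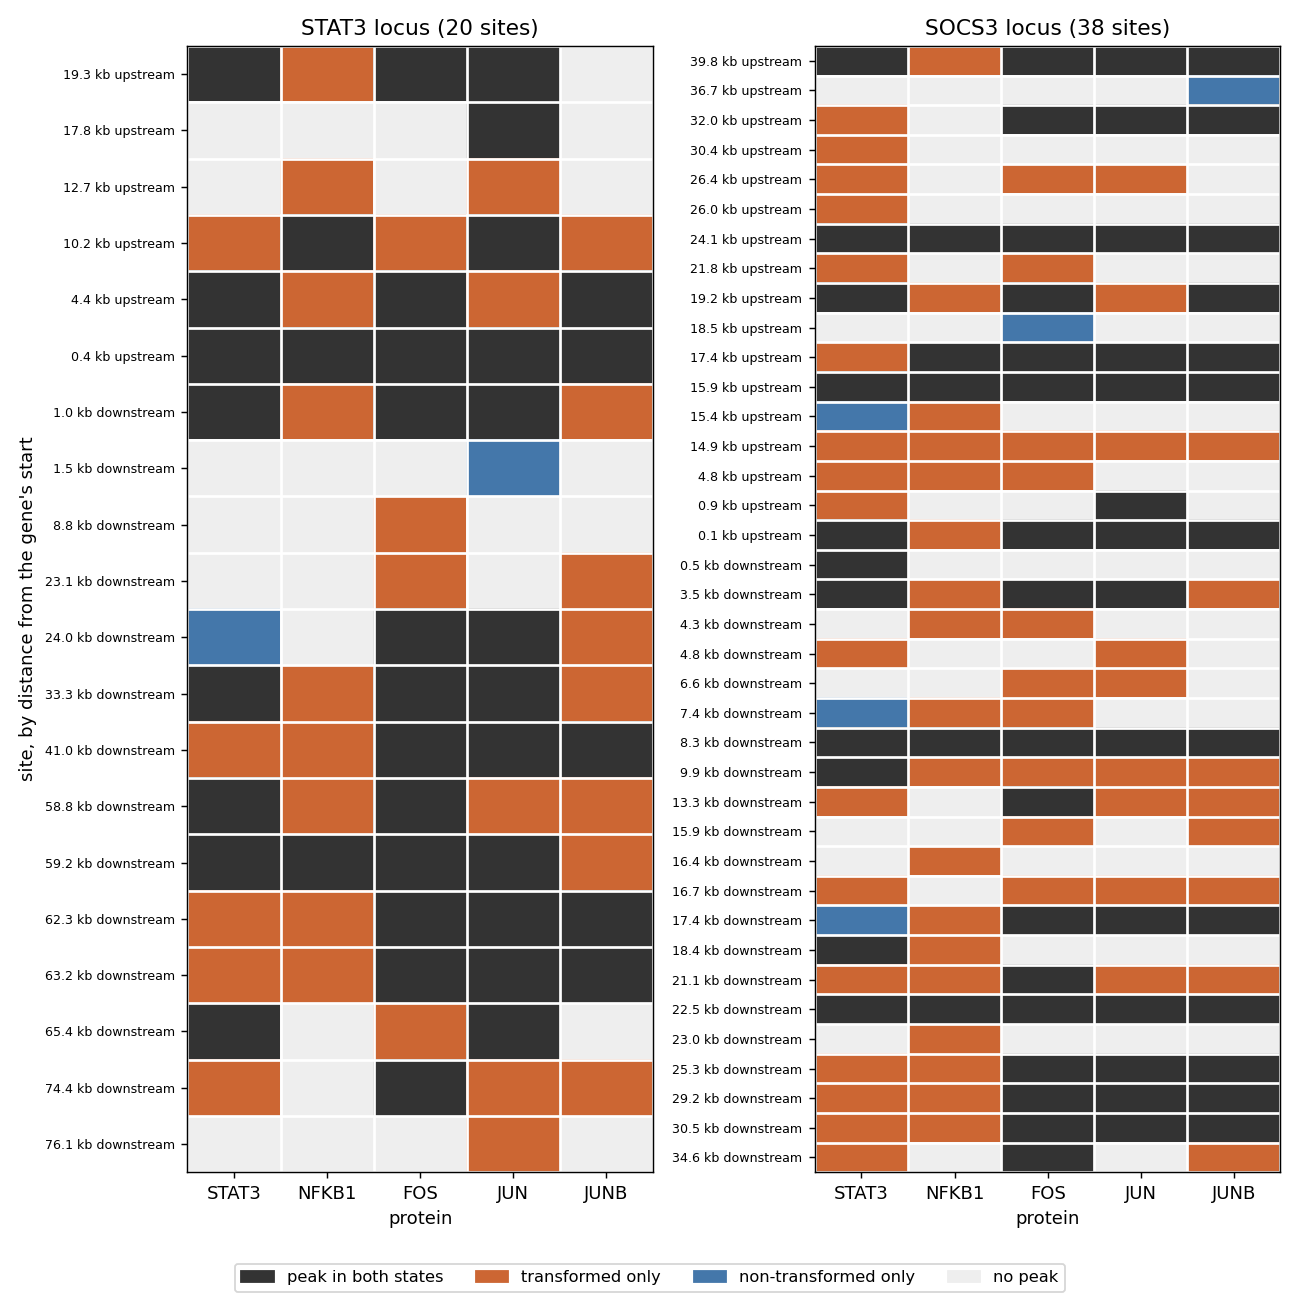
Peaks of each protein (columns) at each site (rows, in order of position, with the distance from the gene's start) of the STAT3 locus (20 sites, left) and the SOCS3 locus (38 sites, right). Black marks a summit in both states, orange in transformed cells only, blue in non-transformed cells only, and light grey none. Most STAT3 squares of the SOCS3 locus are orange (17) or black (11), and the only sites black in all 5 columns are 1 at STAT3 and 4 at SOCS3.

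The AP-1 proteins had most of their sites in both states at SOCS3. FOS had 12 shared sites at STAT3 with 4 in transformed cells only and none in non-transformed cells only, and 17, 10, and 1 at SOCS3, against 34.5% and 10.7% genome-wide. JUN had 12, 5, and 1 sites at STAT3 and 14, 9, and none at SOCS3, against 43.2% and 11.6%. JUNB had 5, 8, and none at STAT3 and 13, 8, and 1 at SOCS3, against 37.3% and 15.8%. The median ratios at SOCS3 were 1.15 for FOS, 1.36 for JUN, and 1.46 for JUNB, and over all shared sites they were 0.949, 1.29, and 0.964. At STAT3 they were 1.03, 1.30, and 0.801. The counting intervals of most single AP-1 ratios included 1. Among those that did not, picked after their values were seen, FOS at 25.3 kb downstream of SOCS3 had 23 and 65 reads, a ratio of 2.38 (1.46 to 4.02), and at 13.3 kb downstream 10 and 37 reads, a ratio of 3.12 (1.52 to 7.03). At 39.8 kb upstream of SOCS3 JUN had 8 and 33 reads, a ratio of 3.54 (1.61 to 8.88), while FOS had 50 and 53. Some AP-1 intervals lay below 1. JUNB at 29.2 kb downstream of SOCS3 had 18 and 14 reads, a ratio of 0.453 (0.2086 to 0.9645). The others were those given above for FOS at 24.0 kb and JUNB at 41.0 kb downstream of STAT3.

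All 5 proteins came together at more sites in transformed cells. NFKB1 had 12 sites at STAT3 and 23 at SOCS3 there, against 3 and 5 in non-transformed cells. JUNB had 13 and 21, against 5 and 14. The NFKB1 and JUNB libraries of non-transformed cells were both shallower than those of transformed cells. The part of this depth in these counts and in the counts with all 5 proteins was not tested. The STAT3 locus had 20 sites, of which 1 had all 5 proteins in non-transformed cells and 10 in the transformed. The SOCS3 locus had 38 sites, of which 4 had all 5 in non-transformed cells and 15 in the transformed. Counted among sites with STAT3, this was 1 of 9 and 10 of 13 at the STAT3 locus and 4 of 14 and 15 of 28 at the SOCS3 locus. Genome-wide 14.3% of STAT3 sites in non-transformed and 47.6% in transformed cells had all 5. In transformed cells AP-1 was present at 13 of 13 STAT3 sites of the STAT3 locus and 24 of 28 of the SOCS3 locus, against 88.1% of STAT3 sites genome-wide. NFKB1 was present at 11 of 13 and 17 of 28, against 57.8%. Counts with all 5 proteins depend on the cutoff: among peaks of at least 2 RPM, none was left at the STAT3 locus in either state, and 3 were left at SOCS3 in transformed cells. That cutoff lies above the median signal of every list, which ran from 0.694 (JUN, non-transformed) to 1.65 RPM (NFKB1, non-transformed).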

How the data were processed

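ChIP-seq peak lists of 5 proteins in 2 states (10 samples, 1 per group) were analysed; groups come from the sample titles. The submitters' processing notes name Bowtie, MACS2, and hg19. Per the file headers, the authors ran MACS (2.0.10.20131216) on unique alignments of 36 bp reads with no control, keeping at most 1 read per position, with a local background over 1000000 bp, an effective genome of 2700000000 bp, and a q-value cutoff of 0.05. The deposited pileup is a signal (reads over the summit, not scaled by depth), the deposited q-value is given as −log10, and the deposited fold enrichment is a ratio to the background.

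Signals were divided by each library's filtered reads (4837474 to 22082403) to give RPM. Summit windows of 150 bp on each side that overlapped by 1 bp were joined into sites on chromosomes 1 to 22 and X, and the strongest peak stands for a list. Distances are from the median summit. Intervals of ratios are exact and conditional on the sum of both pileups. Python 3.11.15, numpy 2.4.6, pandas 2.3.3, and scipy 1.17.1 were used, and joining was checked on simulated data. Text names sites within 2 kb of a start and the 6 sites with most STAT3 signal in transformed cells per locus, and others where stated. The members and lists were chosen with earlier results of these data known. Alternatives were windows of 50 bp, a −log10 q-value of at least 9.41, at least 2 RPM, fold enrichment, and, added after seeing the data, whole peaks and division by fragment length. Exons, introns, a list of other pathway genes, and motifs at summits were not analysed here, as no hg19 annotation or sequence was used.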

Additional observations from a re-analysis of the deposited data

How the results depend on the processing

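No paired analysis was possible because each protein has 1 library per state, and for the same reason no library could be left out. Windows of 50 bp kept the counts of sites, of STAT3 sites, and of sites with all 5 proteins within 1.5 times, and whole peaks did so for the counts of STAT3 sites and of sites with all 5 proteins. Counts moved when a cutoff on the q-value or on RPM was applied. With a −log10 q-value of at least 9.41, sites with STAT3 in non-transformed cells were 5 at STAT3 and 7 at SOCS3, and those in transformed cells 7 at STAT3. Sites with all 5 proteins were then 0 and 1 in non-transformed and 2 and 8 in transformed cells. With at least 2 RPM, 9 sites remained at STAT3 and 21 at SOCS3, with STAT3 at 3 and 4 in non-transformed cells and at 5 in transformed cells at STAT3, and all 5 proteins at 0 and 0 in non-transformed and 0 and 3 in transformed cells. Under both settings the count of STAT3 sites was higher in transformed cells at both loci. Fold enrichment and division by fragment length kept both median ratios within 1.5 times (1.55 and 1.31, 2.18 and 2.34). The order of the loci was not kept by fold enrichment. In RPM the median was 1.73 at STAT3 and 1.86 at SOCS3, while by fold enrichment STAT3 had the higher one. Of 19 single STAT3 ratios, 1 changed direction, 0.5 kb downstream of SOCS3 at 0.802 by fold enrichment. Fold enrichment took 3 others outside their counting interval (1.58 at 24.1 kb upstream, 1.14 at 15.9 kb upstream, and 1.08 at 8.3 kb downstream of SOCS3), and division by fragment length 1, the STAT3 start. The listed pathway genes were not run.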
